A study of Mus musculus with 36 samples.

Results

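Brain tumors were compared with kidney tumors of mice in which the ASPSCR1-TFE3 gene fusion was switched on by Sglt2-Cre. The comparison used 14 of the 36 samples of the series, chosen by their labelled tissue and genotype: 3 brain tumors from 3 mice and 11 kidney tumors from 6 mice. The mice with a brain tumor, here called mouse 1, mouse 2 and mouse 4, also carried kidney tumors that were sequenced, so each brain tumor had kidney tumors of the same animal beside it. The counts of kidney tumors from the same mouse were added up, which left 3 brain against 6 kidney samples.

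All of these mice had the genotype Sglt2-Cre; ASPSCR1-TFE3 LSL/+, so tumors of both sites carried the same fusion allele and the same Cre driver. The Sglt2 promoter (gene Slc5a2) is that of the sodium-glucose transporter of the proximal tubule, and Cre removes a stop cassette in front of the fusion allele. The labels do not say whether a brain tumor was a metastasis or arose in place, and no brain tissue without a tumor was part of the series. RNA came from tissue that was fixed in formalin and embedded in paraffin, and ribosomal RNA was not depleted. The age of the mice was not given.

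As background, TFE3 belongs to the MiT/TFE family of transcription factors, which drive genes of lysosomes, autophagy and nutrient sensing, and in pigment cells genes of the melanosome. The fusion protein keeps the DNA-binding part of TFE3, and the human counterpart is found in translocation renal cell carcinoma and in alveolar soft part sarcoma. Kidney epithelium is specified by factors such as Pax2 and Pax8, while Hox genes record the position of a cell along the body axis and are silent in the forebrain.

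In the brain tumors 28 of 31 Hox genes, 9 of 18 kidney lineage factors and 10 of 16 glucuronidation enzymes passed the test as lower. Of neuronal genes 7 of 31 passed as higher, as did 4 of 12 astrocyte, 3 of 16 oligodendrocyte and 2 of 13 pigment genes. Of 28 MiT/TFE targets 27, Gpnmb among them, lay in overlapping ranges at both sites, and Rragb was higher in brain tumors. Some vessel, pericyte and collagen genes passed as lower. Of 23391 genes tested with edgeR's quasi-likelihood test, 2044 (8.74%) had an adjusted p under 0.05, of which 1062 (4.54%) were higher and 982 (4.2%) lower in brain tumors. With mouse as a replicate block over the 3 pairs, 0 genes passed and 2870 had an unadjusted p under 0.05. The same 3 mice without the block gave 39 calls. The smallest adjusted p of that fit was 0.267. The median log2 fold changes of 3 lists stayed close to those without the block, at -6.08 for the Hox genes, -4.64 for the renal lineage factors and -6.13 for the glucuronidation enzymes. Not every list did so: that of the Hsd3b steroid dehydrogenases went from -5.38 to -4.35.

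**Figure D1:**
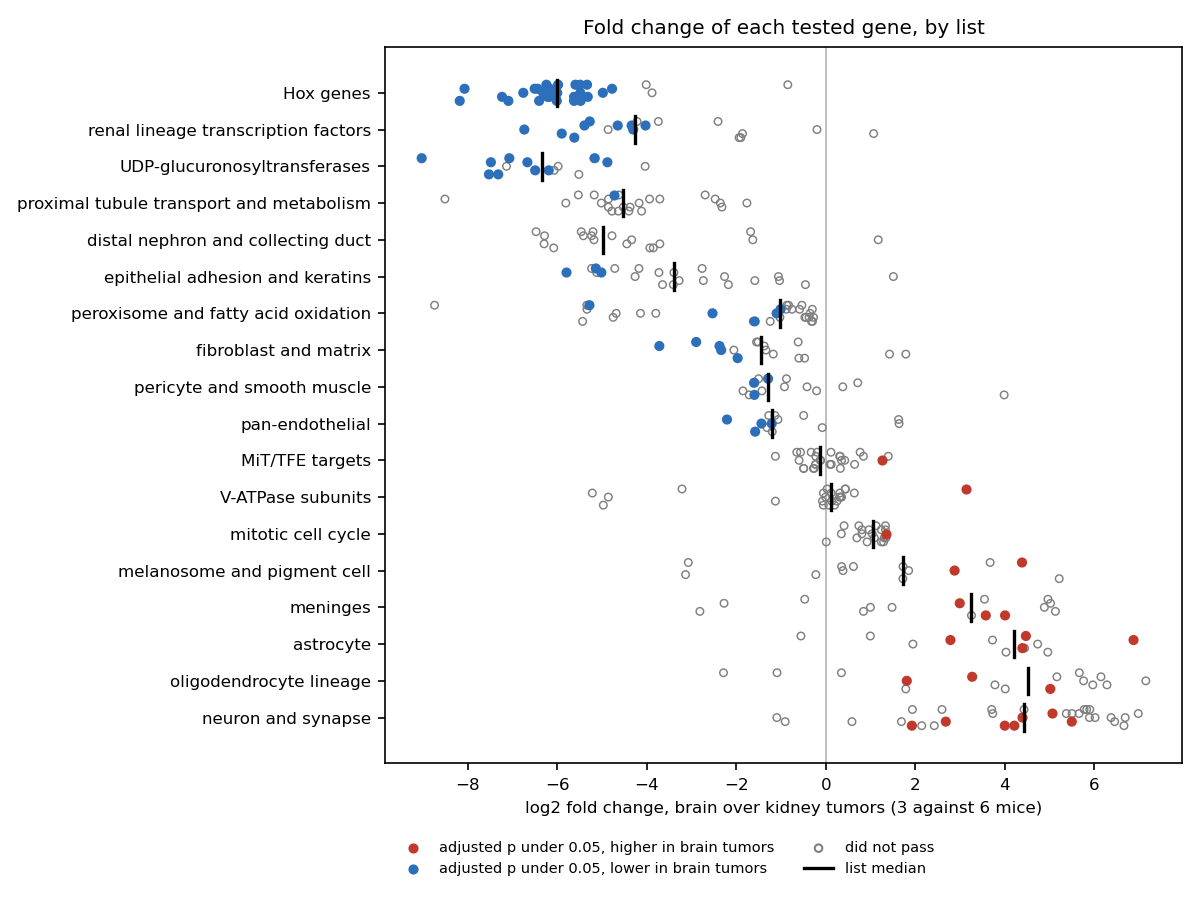
Each point is a tested gene, placed by its log2 fold change of brain over kidney tumors (x axis) in the row of its list, with filled points for an adjusted p under 0.05 in edgeR's quasi-likelihood test and a black bar for the median of the list. Of the 31 Hox genes 28 passed the test as lower, whereas the 28 MiT/TFE targets scattered around a median of -0.12.

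Depth was similar at the 2 sites, with totals of 103605098 to 110987143 counts in the brain and 95205356 to 119317777 counts in the kidney tumors. A floor of 3 counts corresponded to 0.025 to 0.029 CPM (counts scaled to a fixed library size) in a brain library, and lower values are read here as not detected at this depth. One library stood apart: kidney tumor replicate 7, from mouse 4, held some brain genes at levels not seen in the other 10 kidney tumor libraries. Among 84 genes with at least 5 CPM in the brain tumor of mouse 4 and under 1 CPM in each of those other libraries, replicate 7 exceeded every other kidney tumor library in 82, at a median of 38% of the level in that brain tumor. These genes were chosen for being low in the other libraries. Zic1, for example, was at 38.8 CPM in replicate 7 and 107 CPM in the brain tumor of mouse 4. Over whole lists the second kidney tumor library of mouse 4, replicate 8, was not low throughout: its neuronal genes summed to 557.1 CPM against 648 CPM in replicate 7, and its astrocyte genes to 676.2 CPM, the highest of the kidney tumor libraries, against 571.1 CPM. Brain regional factors summed to 0.852 CPM in replicate 8 against 82.2 CPM in replicate 7. Without replicate 7 the test called 2729 of 21529 genes, 1555 of them higher and 1174 lower in brain tumors. Genes named here whose call changed without it are given both ways below. The library was singled out after its high genes were seen, so smaller p-values for those genes without it follow from that choice. They are not separate support. Why this library holds these genes was not tested, nor was whether its label is right, so the kidney values of mouse 4 and the fit over all libraries carry that doubt. The fit over all libraries remains the one described unless stated.

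The Hox genes were the most uniform difference between the sites. Of 39 Hox genes, 31 were tested, 28 were lower in the brain tumors and none was higher, with a median log2 fold change of -6.02 against 0.03 over all genes tested. For 30 of the 31 genes every brain tumor lay below every kidney tumor, while 15.3% of all genes tested had groups that did not overlap. The summed level of the 31 genes was 2.38, 4.39 and 6.88 CPM in the brain tumors of mouse 1, mouse 2 and mouse 4, and 247 to 352 CPM in the kidney tumors. Hoxa10 (ENSMUSG00000000938.11, GRCm38 chromosome 6, 52231197 to 52240854) is a trunk-level gene of the HoxA cluster that was at 0.0968, 0.2 and 0.748 CPM in the brain tumors and at 15.2, 31.9 and 47.2 CPM (lowest, median and highest mouse) in the kidney tumors. All brain tumors lay far below the lowest kidney tumor, with a log2 fold change of -6.51 ± 0.83 (SE, n = 3 and 6, adjusted p = 0.00603 with edgeR's quasi-likelihood test).

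Lower levels ran through all 4 Hox clusters and from their anterior to their posterior members. Hoxa3, one of the anterior genes, was at 0.213 to 0.767 CPM in brain and 28.2 to 45.1 CPM in kidney tumors. Hoxb8 was at 0.133 to 0.441 CPM against 12 to 28.9 CPM, and Hoxc10 at 0.116 to 0.604 CPM against 9.27 to 37.1 CPM. Hoxd8, the Hox gene with the highest brain level after Hoxa3 and Hoxa10, reached 0.716 CPM in mouse 2 against 13.5 CPM in the lowest kidney tumor. Among the tested genes that did not pass were Hoxd1 (adjusted p = 0.685) and Hoxd11 (adjusted p = 0.0531), which were also low in the kidney tumors. Hoxd11 passed without replicate 7 (adjusted p = 0.0396) and without the brain tumor of mouse 1 (adjusted p = 0.0323). The count of 28 did not depend on a single brain tumor: 29, 28 and 28 Hox genes passed without the tumor of mouse 1, mouse 2 and mouse 4. Without kidney tumor replicate 7 all 30 tested Hox genes passed.

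**Figure D2:**
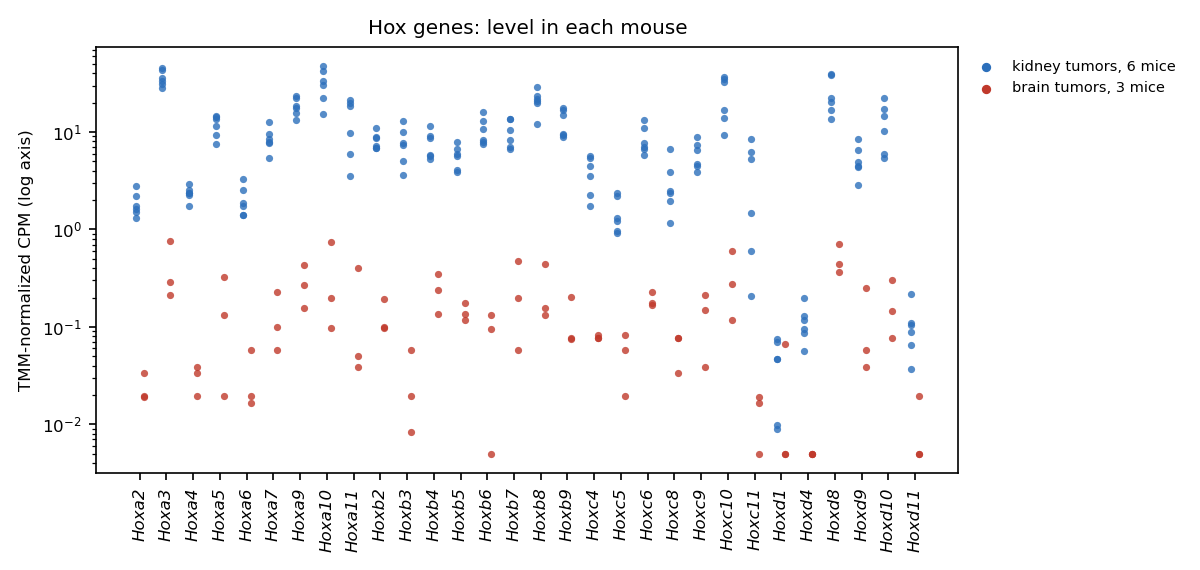
Points give the TMM-normalized CPM (log axis) of 30 tested Hox genes in the 6 mice with kidney tumors (blue) and the 3 brain tumors (red), with a value of 0 drawn at 0.005. Apart from Hoxd1, every brain tumor lies below every kidney tumor.

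The summed Hox level of kidney tumors spanned that of control kidneys, without a test of the difference. Summed over the same genes and taken library by library, Hox RNA was at 202.8 to 433.7 CPM in kidney tumors and 309.4 to 339.5 CPM in Sglt2-Cre control kidneys, and at 5.82 to 22.9 CPM in retro-orbital tumors of the same model. Mir196a-1, a microRNA gene between Hoxb genes on chromosome 11, moved with its neighbors, at 0.0499 to 0.201 CPM in brain against 14.7 to 25 CPM in kidney tumors (log2 fold change -7.38 ± 0.58, adjusted p = 0.00113). These counts come from reads over the locus and may include longer Hoxb transcripts that overlap it, so they do not measure the mature microRNA. Its mature sequence is shown because miR-196 is known to target Hox messages, with the seed (bases 2 to 8) in capitals, from RefSeq (GRCm38.p6, chr11:96265187-96265208, plus strand).
mmu-miR-196a-5p: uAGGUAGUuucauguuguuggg

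Transcription factors of the renal lineage also differed. Of 18 tested, 9 were lower in brain tumors and none was higher, and the median log2 fold change was -4.26. Those that passed included Pax2, Pax8, Hnf4a, Hnf4g, Emx2, Nr1h4 and Tfcp2l1. Pax2 (ENSMUSG00000004231.15, chromosome 19, 44756045 to 44837871), which specifies the nephric lineage, was at 0.0968, 0.308 and 0.537 CPM in the brain tumors of mouse 1, mouse 2 and mouse 4 and at 23.4, 34.4 and 42.2 CPM (lowest, median, highest) in kidney tumors. Pax8, a partner of Pax2 and a marker of renal tumors, was at 0.261, 0.998 and 0.767 CPM against 29.1, 39.7 and 51.3 CPM. No brain tumor came near the lowest kidney tumor for Pax2 or Pax8, with log2 fold changes of -6.74 ± 0.63 (adjusted p = 0.00198) and -5.9 ± 0.51 (adjusted p = 0.00143).

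Hnf4a, the nuclear receptor of proximal tubule maturation, was at 1.18 to 2.75 CPM in brain tumors but ranged from 10.6 to 181 CPM among kidney tumors. Emx2, a homeobox factor of the developing urogenital tract, was at 1.21 to 2.54 CPM against 24.8 to 59.2 CPM (log2 fold change -4.65 ± 0.44, adjusted p = 0.00198). Osr2, an odd-skipped factor outside that list, fell as far as Pax2, from 3.87 to 33 CPM down to 0.0958 to 0.166 CPM.

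**Figure D3:**
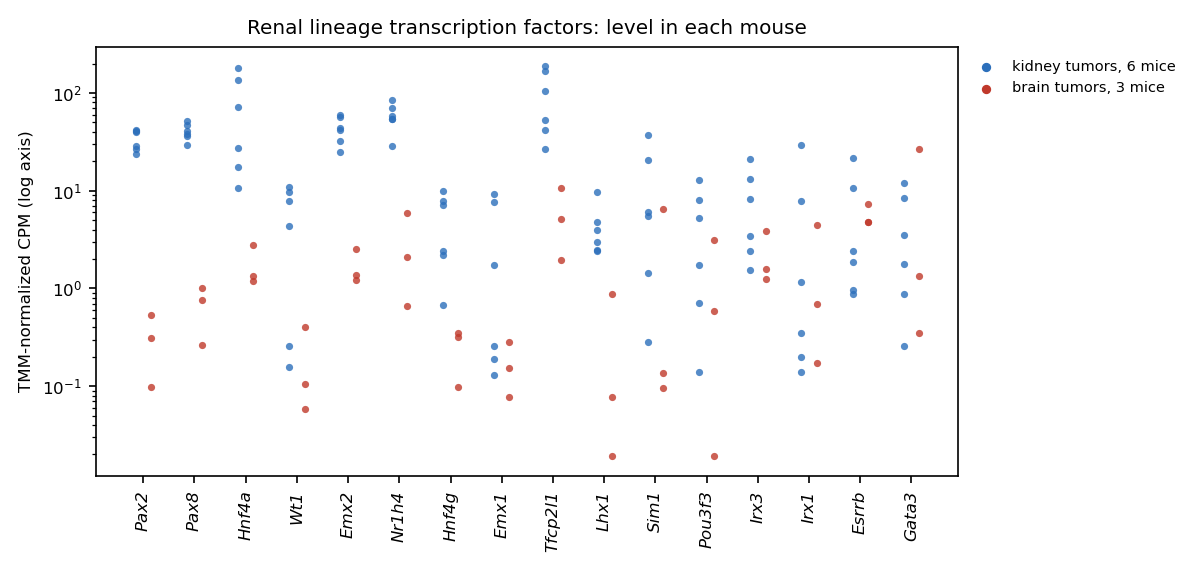
Levels (TMM-normalized CPM, log axis) of 16 renal lineage transcription factors in each mouse, ordered by fold change, for kidney tumors (blue) and brain tumors (red), with a value of 0 drawn at 0.005. Pax2, Pax8 and Emx2 are separated without overlap.

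Lhx1, a factor of the early nephron, did not pass (adjusted p = 0.074) although no brain tumor reached the lowest kidney tumor (0.882 against 2.4 CPM). Sall1, a kidney and microglia factor, fell by 2.34 on the log2 scale (adjusted p = 0.0323), from 90.3 to 164 CPM in kidney tumors to 49, 23.9 and 7.19 CPM in the brain tumors of mouse 1, mouse 2 and mouse 4. Sall1 did not pass without the tumor of mouse 2 (adjusted p = 0.0892). Without any 1 of the brain tumors 7 lineage factors passed, though not the same ones. Hnf4a and Hnf4g did not pass in these fits, and without the tumor of mouse 2 Tfcp2l1 did not (adjusted p = 0.0798) while Lhx1 did (adjusted p = 0.0201).

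Enzymes that join glucuronic acid to drugs, steroids and bilirubin were next. Of 16 UDP-glucuronosyltransferase genes tested, 10 were lower in brain tumors and none was higher, with a median log2 fold change of -6.35. Ugt2b35 (ENSMUSG00000035811.10, chromosome 5, 87000860 to 87013275) was at 0.271, 0.25 and 6.18 CPM in the brain tumors of mouse 1, mouse 2 and mouse 4, and at 23.6, 333 and 767 CPM in the lowest, median and highest kidney tumor. Ugt1a10 was at 0.29, 1.03 and 1.07 CPM against 22.6, 69.3 and 150 CPM. Sglt2-Cre control kidneys differed by gene, with 0.0259 to 0.111 CPM of Ugt2b35, below the brain tumors, but 42.3 to 111 CPM of Ugt1a10. Library by library, the whole list summed to 2278 to 3037 CPM in control kidneys and 668.1 to 3411 CPM in kidney tumors. In brain tumors it summed to 12.3 to 44.5 CPM. The brain tumor of mouse 4 held the most Ugt2b RNA of the 3, yet stayed below every kidney tumor. The log2 fold changes of Ugt2b35 and Ugt1a10 were -7.32 ± 1.83 (adjusted p = 0.0416) and -6.67 ± 0.91 (adjusted p = 0.00747). Ugt1a1, which conjugates bilirubin, was at 0.155, 0.483 and 0.345 CPM against 1.22 to 19 CPM (adjusted p = 0.0156). Ugt1a genes share their downstream exons, and Ugt2b genes are close copies of each other, so reads cannot be assigned to single members with certainty. The number of calls moved with single tumors: 4, 3 and 8 of the 16 genes passed without the brain tumor of mouse 1, mouse 2 and mouse 4.

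Gc, the vitamin D-binding protein, was among the 15 largest falls. Gc was at 0.93, 2.38 and 1.36 CPM in the brain tumors of mouse 1, mouse 2 and mouse 4 and at 59.9, 122 and 383 CPM in the lowest, median and highest kidney tumor, with a log2 fold change of -6.81 ± 0.89 (adjusted p = 0.00669). Pklr, the pyruvate kinase of liver and proximal tubule, was at 0.368, 0.782 and 2.01 CPM against 24.3, 112 and 242 CPM (log2 fold change -6.88 ± 1.18, adjusted p = 0.015). Hsd3b6, a steroid dehydrogenase, had the largest fitted fall of the named genes, but its kidney tumor levels ran from 9.34 to 714 CPM and its adjusted p was 0.0401, and it did not pass without any 1 of the brain tumors. Control kidneys held only 0.568 to 0.838 CPM of Hsd3b6, near the brain tumors (0.129 to 0.662 CPM), although their Hsd3b genes summed to 182.1 to 285.2 CPM. Of 6 Hsd3b genes tested, 3 passed as lower, and 1, 0 and 1 did without the brain tumor of mouse 1, mouse 2 and mouse 4. The 15 largest falls were Hsd3b6, Gc and Pklr, the glucuronidation genes Ugt1a8, Ugt1a9, Ugt1a10, Ugt2b34, Ugt2b35 and Ugt2b37, the Hox cluster genes Hoxa10, Hoxb8, Hoxb9 and Mir196a-1, and the factors Pax2 and Osr2.

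Mature tubule transporters gave few calls, and their levels varied widely among kidney tumors. Ggt1, an enzyme of glutathione breakdown on the brush border, was the 1 gene that passed among 23 proximal tubule genes (4.77 to 7.04 CPM in brain against 33.5 to 384 CPM in kidney tumors, adjusted p = 0.015), a share of 4.35% beside the 4.2% of all genes called lower. The median log2 fold change was -4.53 and no gene of the list had a positive fold change. Slc34a1, the phosphate transporter of the proximal tubule, was at 5.02, 15.2 and 6.64 CPM in the brain tumors of mouse 1, mouse 2 and mouse 4. Kidney tumors held 6.03 to 713 CPM of Slc34a1, so the groups overlapped (adjusted p = 0.126). Slc5a2 itself, the gene whose promoter drives Cre, was at 0.949 to 3.79 CPM in brain and 0.502 to 156 CPM in kidney tumors (adjusted p = 0.17). Among 18 genes of the distal nephron and collecting duct 0 passed, with a median log2 fold change of -4.98. Umod, the uromodulin of the thick ascending limb, was at 5.46, 25.4 and 11.5 CPM in the brain tumors of mouse 1, mouse 2 and mouse 4 and at 4.7 CPM in the lowest, 144.5 CPM in the median and 950.8 CPM in the second highest kidney tumor mouse, so the groups overlapped (adjusted p = 0.118). The amount of tubule left in each kidney tumor block was not measured, and in bulk RNA fewer cells of a type and less RNA per cell cannot be told apart.

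Of 22 epithelial genes tested, 3 passed as lower and none as higher: Cdh16, the kidney-specific cadherin, Cldn2, a leaky tight junction protein of the proximal tubule, and Krt8, a simple epithelial keratin. Cdh16 was at 1.73, 5.78 and 5.15 CPM in the brain tumors and at 123 to 368 CPM in kidney tumors (log2 fold change -5.8 ± 0.66, adjusted p = 0.00372). Krt8 was at 0.368 to 0.79 CPM against 3.51 to 33.1 CPM and did not pass without any 1 of the brain tumors (adjusted p = 0.0525 to 0.0531). The summed epithelial level was 45.5, 188.5 and 631.1 CPM in mouse 1, mouse 2 and mouse 4 against 224.3 to 1117 CPM in kidney tumors, so that mouse 4 lay above the kidney tumor median of 472.6 CPM. Folr1, a folate receptor of tubule and choroid plexus, was at 0.349 to 6.12 CPM in brain tumors and 33.1 to 124 CPM in kidney tumors (adjusted p = 0.0213), which was the 1 gene called of 8 choroid plexus and ependyma genes tested. Folr1 did not pass without the tumor of mouse 2 (adjusted p = 0.0601).

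Of 30 peroxisome and fatty acid oxidation genes 5 passed as lower and none as higher, with a median log2 fold change of -1.02. Catalase (Cat), which breaks down hydrogen peroxide, was at 122, 49 and 66.7 CPM in the brain tumors of mouse 1, mouse 2 and mouse 4, below the 265 to 567 CPM of kidney tumors (log2 fold change -2.54 ± 0.36, adjusted p = 0.00817). Pex7, the import receptor for part of the peroxisomal matrix proteins, was at 15.9 to 25.2 CPM against 29.9 to 53.1 CPM. Ppara, the receptor that induces fatty acid oxidation genes, was at 4.81 to 9.47 CPM against 15.2 to 37.1 CPM. Catalase passed without any 1 of the brain tumors, whereas Pex7 did not without that of mouse 1 or mouse 2 (adjusted p = 0.0563 and 0.0712), nor Ppara without that of mouse 1 or mouse 4 (0.0739 and 0.0737). Ppargc1a, a coactivator of mitochondrial genes, went the other way in each pair without passing (516 to 1625 CPM against 346 to 852 CPM, adjusted p = 0.181).

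Targets of MiT/TFE factors showed little difference between the sites as a group. Of 28 tested, 1 was higher, 0 were lower and the median log2 fold change was -0.12. Gpnmb, a melanosome and lysosome glycoprotein used as a marker of TFE3 tumors, was at 3186, 2780.0 and 4199 CPM in the brain tumors of mouse 1, mouse 2 and mouse 4 and at 2766 to 6791 CPM in kidney tumors. The log2 fold change of Gpnmb was -0.5 with a 95% interval of -1.21 to 0.21. The intervals of Mcoln1, a lysosomal calcium channel, ran from -0.88 to 0.35, and those of Rragd, a Rag GTPase, from -1.43 to 0.43. The gene that passed was Rragb, another Rag GTPase that couples lysosomal nutrients to mTORC1, at 604, 358 and 544 CPM against 133 to 343 CPM (log2 fold change 1.24 ± 0.31, adjusted p = 0.0426). Rragb passed without replicate 7 (adjusted p = 0.0317) but not without the brain tumor of mouse 1 (0.114), mouse 2 (0.0543) or mouse 4 (0.0841). The endogenous genes of the fusion partners did not pass either, with Tfe3 at 15.8 to 20.4 CPM against 17.4 to 33.7 CPM and Aspscr1 at 21 to 26.9 CPM against 19.8 to 40.6 CPM. Reads from the fusion allele were not counted separately.

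Of 23 V-ATPase subunit genes 1 passed as higher, Atp6v1g2, the form of the G subunit found in neurons, at 2.29, 30.3 and 5.86 CPM against 0.935 to 1.89 CPM. Without the tumor of mouse 2 the log2 fold change of Atp6v1g2 went from 3.13 to 1.47 and the gene did not pass (adjusted p = 0.0853), and 1 of 23 (4.35%) is near the 4.54% of all genes called higher. The proton pump itself acidifies lysosomes, and the median log2 fold change of its subunits was 0.12.

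Pigment genes divided. Slc24a5 (ENSMUSG00000035183.14, chromosome 2, 125068124 to 125088677), an ion exchanger of the melanosome, was at 499, 234 and 493 CPM in the brain tumors of mouse 1, mouse 2 and mouse 4 and at 0.521, 1.55 and 57.9 CPM in the lowest, median and highest kidney tumor. Every brain tumor exceeded every kidney tumor, but the gene did not pass with all libraries (log2 fold change 5.21 ± 1.5, adjusted p = 0.0606). The highest kidney value was that of mouse 4, and without replicate 7 the log2 fold change of Slc24a5 was 8.14 with an adjusted p of 0.000709. Mc1r, the melanocortin receptor, passed at low levels (0.782 to 3.74 CPM against 0.103 to 0.492 CPM, adjusted p = 0.0226). Oca2, a melanosomal channel, also passed, with 0.31, 13.3 and 6.4 CPM against 0.0654 to 0.909 CPM, where mouse 1 overlapped the kidney tumors. Mc1r did not pass without the tumor of mouse 4 (adjusted p = 0.0574), and Oca2 did not without that of mouse 2 (0.11) or mouse 4 (0.0543). Dct, the dopachrome tautomerase, was at 482 and 847 CPM in mouse 2 and mouse 4 but at 0.232 CPM in mouse 1, and did not pass with all libraries (adjusted p = 0.367) but did without replicate 7 (log2 fold change 9.8, adjusted p = 0.00873). Pmel and Trpm1 were expressed at both sites, at 87.5 to 575 and 181 to 679 CPM in brain tumors, and overlapped.

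Genes of the brain differed between the brain tumors themselves. Of 31 neuron and synapse genes 7 passed as higher and none as lower, of 12 astrocyte genes 4 and of 16 oligodendrocyte genes 3, with median log2 fold changes of 4.43, 4.21 and 4.51. The summed neuronal level was 628.5 CPM in the brain tumor of mouse 1, 6056 CPM in mouse 2 and 1521 CPM in mouse 4, against 150 to 592 CPM in kidney tumors. The oligodendrocyte sum of mouse 1, 46.3 CPM, was below that of every kidney tumor (70.3 to 289.2 CPM). The astrocyte sum was 886.4, 1614 and 722.3 CPM in mouse 1, mouse 2 and mouse 4, above the 370.3 to 611.5 CPM of kidney tumors, and in mouse 1 717.7 CPM of it was Gja1, a gap junction gene that kidney tumors also held at 212.3 to 336.5 CPM. Gja1, named after its values were seen, did not pass (adjusted p = 0.107) except without the brain tumor of mouse 4 (adjusted p = 0.0111). Microglia genes gave 1 call of 9, Sall1 as lower, and summed to 67.4, 119.6 and 88 CPM against 138.7 to 210.5 CPM in kidney tumors, where Sall1 alone made up 90.3 to 164 CPM. Markers of these lists did not move together in mouse 1, where Rbfox3, the neuronal NeuN, was at its highest (89.6 CPM) while others were near 0. Gfap, the astrocyte filament, was at 0.174 CPM in mouse 1 and 148 CPM in mouse 4, with mouse 2 near mouse 4. Mog, a myelin protein, was at 0, 15.8 and 1.55 CPM in mouse 1, mouse 2 and mouse 4, and Gad1, the enzyme that makes GABA, at 0.0387, 193 and 10.7 CPM. Without replicate 7 Gfap and Gad1 passed as higher (adjusted p = 0.00588 and 0.0286), which they did not with all libraries (0.206 and 0.0922). The tumor of mouse 2 was the highest of the 3 for 27 of 31 neuronal and 16 of 16 oligodendrocyte genes. Without it 1 neuronal, 1 astrocyte and 0 oligodendrocyte genes passed. Without kidney tumor replicate 7, 20 of 29 neuronal, 7 of 12 astrocyte and 8 of 13 oligodendrocyte genes passed, beside 1555 called higher of all 21529 genes tested. Fewer neuronal and oligodendrocyte genes were tested in that fit than with all libraries. Replicate 7 was singled out for holding brain genes, so the larger counts follow from that choice and are not a result about the lists. The part of surrounding brain tissue in these results was not tested.

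**Figure D4:**
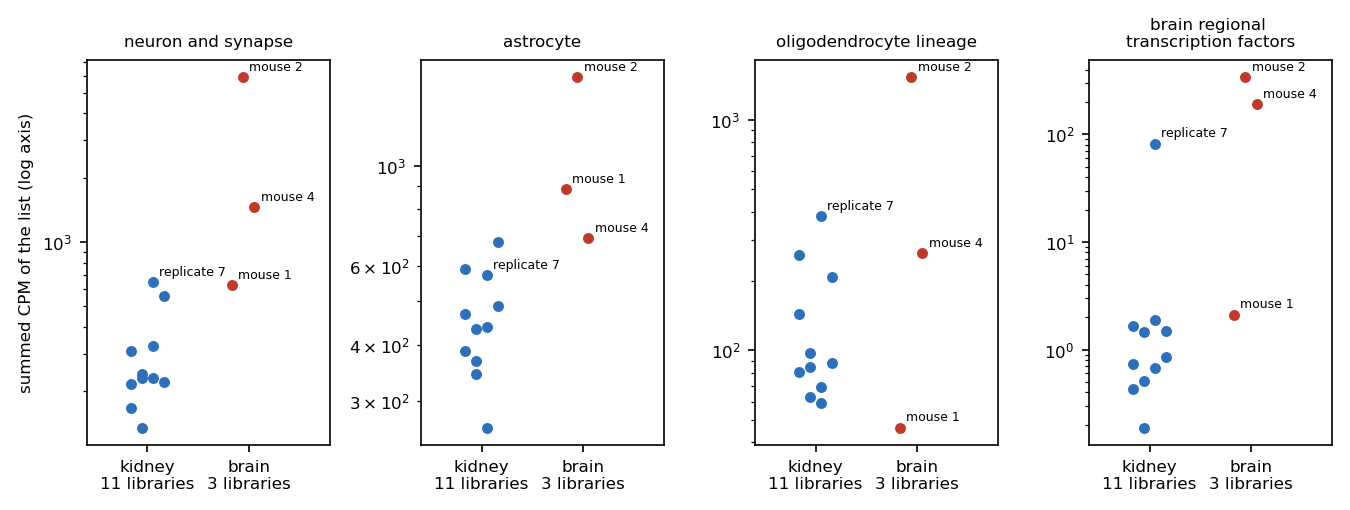
Summed TMM-normalized CPM (log axis) of the neuron, astrocyte, oligodendrocyte and brain regional factor lists in each of the 11 kidney tumor libraries (blue) and the 3 brain tumors (red). Mouse 2 is highest in each list, mouse 1 lies within or near the kidney tumors for neuronal, oligodendrocyte and regional genes, and kidney tumor replicate 7 stands above the other kidney libraries for regional factors.

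A smaller set of neural genes was high in all 3 brain tumors, including that of mouse 1. Rbfox3, the neuronal nuclear protein NeuN, was at 89.6, 57.6 and 55.7 CPM in mouse 1, mouse 2 and mouse 4 and at 0.153, 0.509 and 9.95 CPM in the lowest, median and highest kidney tumor (log2 fold change 5.06 ± 1.29, adjusted p = 0.0443). Kcna1, a voltage-gated potassium channel, was at 54.3, 54.3 and 67.8 CPM against 0.0465 to 5.74 CPM. Sez6l, a neuronal membrane protein, was at 84.3, 57.6 and 98.9 CPM against 0.13 to 10.2 CPM. These 3 genes varied little among the brain tumors, unlike Gad1, but their calls moved with single tumors: Rbfox3 and Sez6l did not pass without any 1 of the brain tumors, and Kcna1 did not without that of mouse 2 (adjusted p = 0.062) or mouse 4 (adjusted p = 0.0508). Ankrd55, an ankyrin repeat protein, had the smallest adjusted p of the 15 largest rises (0.00248), at 45.5, 19.8 and 11.8 CPM against 0.293 to 1.13 CPM, and passed without any single brain tumor. Dio2, which activates thyroid hormone, was highest in mouse 1 (87.6, 3.25 and 14.1 CPM against 0.0187 to 1.87 CPM). Without that tumor its log2 fold change went from 6.35 to 4.31 and Dio2 did not pass (adjusted p = 0.0782).

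Most of the other large rises were highest in the tumor of mouse 2. Rims1, a scaffold of the presynaptic active zone with the largest fitted rise (log2 fold change 7.06 ± 1.73, adjusted p = 0.0398), was at 17.9, 196 and 5.43 CPM in mouse 1, mouse 2 and mouse 4. Elavl2, a neuronal RNA-binding protein, was at 4.42, 75.3 and 2.39 CPM, and Cacna1b, a presynaptic calcium channel, at 2.77, 108 and 5.34 CPM. Without the tumor of mouse 2 none of these 3 passed, with adjusted p-values of 0.141 for Rims1, 0.149 for Elavl2 and 0.131 for Cacna1b. Neto1, a protein of kainate receptor complexes, was instead highest in mouse 1 (159.5, 87 and 20.8 CPM in mouse 1, mouse 2 and mouse 4 against 0.168 to 8.66 CPM, adjusted p = 0.0324), and did not pass without mouse 1 (0.0596) or mouse 2 (0.0618). Of the remaining largest rises, Gpr158, Ddx25, Lrp1b, Elmod1, Bend6, Zcchc18 and Lrrc4c were also highest in the tumor of mouse 2, and without it none of these 7 passed (adjusted p = 0.0543 to 0.356). Eno2, a glycolytic enzyme known as a neuronal marker, was higher in all 3 tumors (94.3, 151 and 153 CPM against 17.3 to 47.7 CPM, log2 fold change 1.92 ± 0.3, adjusted p = 0.0113) and passed without each of them.

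Zic1 and Zic5, of a family that marks the meninges and the dorsal neural tube, separated the sites in every mouse. Zic1 (ENSMUSG00000032368.14, chromosome 9, 91358058 to 91365810) was at 123, 84.2 and 109 CPM in the brain tumors of mouse 1, mouse 2 and mouse 4. Kidney tumors were at 0 to 0.228 CPM in 5 mice and at 19.6 CPM in mouse 4. The adjusted p of Zic1 was 0.14 with all libraries and 0.00102 without replicate 7. Zic1 was among the genes that set replicate 7 apart, so its smaller p without that library is not a separate test. Zic2 and Zic4 behaved alike, with adjusted p-values of 0.137 and 0.154 with all libraries and 0.00806 and 0.000709 without replicate 7. Zic5 passed in both fits, at 60.6, 20.5 and 45.8 CPM against 0.473 to 8.12 CPM (log2 fold change 4 ± 0.79, adjusted p = 0.0223). Of 15 genes of the meningeal list 3 passed as higher with all libraries, Zic5, Crabp2 and Tbx18, and 7 of 14 without replicate 7. The list as a whole overlapped between the sites. Its sum was 3404, 1017 and 1652 CPM in the brain tumors of mouse 1, mouse 2 and mouse 4. Kidney tumors held 1019 to 3568 CPM, with a median of 2234 CPM. In all 3 pairs 9 of its genes were higher and 2 lower in the brain tumor. Crabp2, a retinoic acid carrier, was at 76.5, 79.9 and 269 CPM against 2.37 to 35.4 CPM, and did not pass without the tumor of mouse 2 (adjusted p = 0.0596) or mouse 4 (log2 fold change 2.13, adjusted p = 0.11). Tbx18, a T-box factor of pericytes and meningeal cells, was at 36.4 CPM in mouse 1 but at 2.03 and 2.17 CPM in the others, just above the highest kidney tumor (1.89 CPM), and did not pass without mouse 1.

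Otx2, Six3 and Sox2 were near 0 in mouse 1. Of 10 brain regional factors tested, Lhx2 alone passed with all libraries, at 0.387, 4.53 and 2.32 CPM against 0.028 to 0.267 CPM, and did not pass without the tumor of mouse 2 (adjusted p = 0.0536). Otx2, a forebrain and midbrain factor, was at 29.4 and 26.7 CPM in mouse 2 and mouse 4 but at 0 CPM in mouse 1, and Six3, of the anterior forebrain and eye, at 12.9, 18.9 and 0.0194 CPM in the same order. Sox2, of neural progenitors and glia, was at 283 and 146 CPM in mouse 2 and mouse 4 and at 0.0581 CPM in mouse 1. Without replicate 7 Otx2, Six3 and Sox2 passed as higher (adjusted p = 0.0408, 0.0211 and 0.0141). The brain tumor of mouse 1 held Zic1, Rbfox3 and Kcna1 near the level of the other two, while Otx2 was not detected and Sox2 and Gfap were far below them.

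Vessel genes were mixed. Of 13 pan-endothelial genes 4 passed as lower (Emcn, Eng, Pecam1 and Robo4) and none as higher, with a median log2 fold change of -1.2, and 9 did not pass. The summed pan-endothelial level was 425.1 and 396.7 CPM in the brain tumors of mouse 1 and mouse 2, below the 539.1 to 1061 CPM of kidney tumors, but 1538 CPM in that of mouse 4, above all of them. Emcn, the endomucin of capillary and venous endothelium, was at 31.6, 19.1 and 42.5 CPM in the brain tumors of mouse 1, mouse 2 and mouse 4 and at 108 to 190.1 CPM in kidney tumors (log2 fold change -2.21 ± 0.29, adjusted p = 0.00669). Pecam1, an adhesion molecule of all endothelium, was at 30.2 to 42.7 CPM against 60.1 to 105 CPM. The brain tumors lay below all kidney tumors for both genes, and Emcn passed without any 1 brain tumor, whereas Pecam1 did not without that of mouse 2 (adjusted p = 0.0502), Eng not without that of mouse 1 (0.0528), and Robo4 not without either (0.0991 and 0.0705). Among 10 genes of the blood-brain barrier endothelium Spock2 alone passed, as higher, and the median log2 fold change of that list was 2.28. Spock2 did not pass without the tumor of mouse 2 (adjusted p = 0.137) or mouse 4 (0.0633). Vwf was at 34 to 175 CPM in brain and 4.11 to 80.3 CPM in kidney tumors, and did not pass.

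Pericyte genes (3 of 15 lower) and fibroblast and matrix genes (5 of 16 lower) passed in part, with median log2 fold changes of -1.29 and -1.45 and none higher. In the brain tumor of mouse 4 the sums, 748.6 and 3198 CPM, lay within the kidney tumor ranges of 407.2 to 1000.0 and 1966 to 4618 CPM, whereas mouse 1 and mouse 2 lay below them. Cspg4, the pericyte proteoglycan NG2, was at 14.1, 13.3 and 19.3 CPM against 35 to 69.7 CPM (log2 fold change -1.6 ± 0.29, adjusted p = 0.0177). Notch3, a receptor of mural cells, was at 23.1 to 43.7 CPM against 47.5 to 104 CPM. Col1a1, the main chain of type I collagen, was at 72.7, 32.9 and 81.5 CPM in mouse 1, mouse 2 and mouse 4 and at 207 to 712 CPM in kidney tumors, a log2 fold change of -2.9 ± 0.54 (adjusted p = 0.0197). Col3a1 was at 38.7 to 148 CPM against 218.2 to 653 CPM. Without the brain tumor of mouse 2, 0 genes of either list passed.

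**Figure D5:**
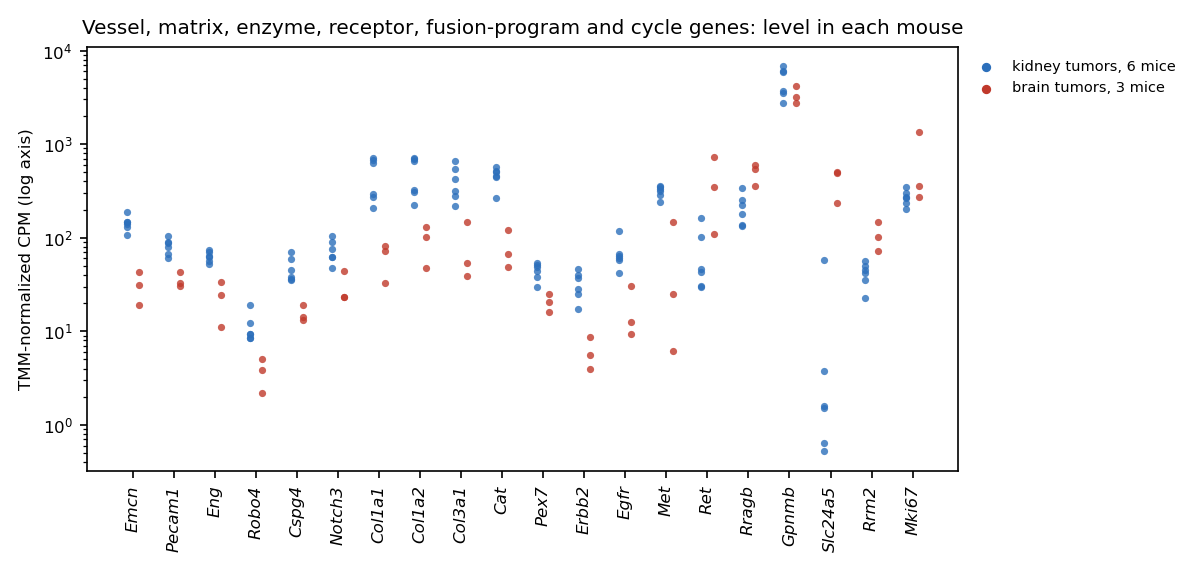
TMM-normalized CPM (log axis) of 20 genes of vessels, matrix, enzymes, receptors, the fusion program, pigment and the cell cycle in the 6 mice with kidney tumors (blue) and the 3 brain tumors (red). Emcn, Col1a1, Cat and Erbb2 lie lower in all brain tumors, Slc24a5 and Rrm2 lie higher, and Gpnmb overlaps.

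Of 20 receptor kinase and angiogenic factor genes, 3 passed as lower and 1 as higher (5%, near the 4.54% of all genes called higher). Erbb2, a receptor of the EGF receptor family, was at 5.58, 3.98 and 8.77 CPM in the brain tumors of mouse 1, mouse 2 and mouse 4 and at 17.4 to 46.3 CPM in kidney tumors (log2 fold change -2.4 ± 0.4, adjusted p = 0.014). Egfr was at 9.44 to 30.3 CPM against 41.5 to 119 CPM (adjusted p = 0.0344), and did not pass without the tumor of mouse 2 (0.0973) or mouse 4 (0.0661). Ret, the GDNF receptor of the ureteric bud and of neural crest, was higher at 729, 110 and 344 CPM against 29.5 to 161 CPM (log2 fold change 2.52 ± 0.66, adjusted p = 0.0482), where mouse 2 overlapped the kidney tumors, and missed the threshold without replicate 7 (adjusted p = 0.0524) and without the brain tumor of mouse 1 (0.162) or mouse 4 (0.0694). Met, the hepatocyte growth factor receptor, was at 6.14, 24.8 and 149 CPM, below the 239 to 360 CPM of every kidney tumor, but its spread between brain tumors was wide and it did not pass (adjusted p = 0.0971) except without the tumor of mouse 4 (log2 fold change -4.34, adjusted p = 0.0102).

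Few cell cycle genes passed. All 20 mitotic genes tested had a positive fold change, with a median of 1.06, but 1 passed (5%, near the 4.54% of all genes called higher), Rrm2, which supplies nucleotides for DNA synthesis, at 147, 72.2 and 102 CPM against 22.6 to 57.1 CPM (log2 fold change 1.35 ± 0.3, adjusted p = 0.0306). Mki67, the proliferation antigen Ki-67, was at 1346 CPM in the brain tumor of mouse 1, which was the highest of the 3 for 19 of 20 mitotic genes, and at 275 and 360 CPM in mouse 2 and mouse 4, near the 201 to 351 CPM of kidney tumors. Without the brain tumor of mouse 1 the median log2 fold change of the list was 0.34 and 0 genes passed, as without that of mouse 4, whereas 7 passed without that of mouse 2. Lymphocyte (16), macrophage (16), blood (9) and skeletal muscle (11) genes held no gene that passed.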

How the data were processed

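Total RNA from mouse tissue fixed in formalin and embedded in paraffin was sequenced with a stranded kit without depletion of ribosomal RNA. The authors deposited raw counts of reads per gene, with versioned Ensembl gene IDs. The processing notes of the submitters name STAR 2.5.2a, Bowtie2, FastQC and MultiQC with the builds GRCm38 and mm10, and the counting program is not given in the sources used here. Even counts made up 79.37% to 82.39% of the nonzero values, so both mates of a read pair may have been counted. Names and coordinates came from GENCODE M21 (GRCm38), which matched 53274 of 53379 IDs.

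Counts of kidney tumor libraries from the same mouse were summed, genes were filtered with filterByExpr, and brain and kidney tumors were compared with the quasi-likelihood F-test of edgeR 4.0.16 in R 4.3.3 after TMM normalization. A gene was called at a Benjamini-Hochberg adjusted p under 0.05 over all genes tested. Levels are TMM-normalized CPM, and errors are SE of the log2 fold change. The floor was set at 3 counts and, like any limit of this kind, reflects only the error of counting. limma 3.58.1 and DESeq2 1.42.0 served as alternatives. Whether separate tumors of a mouse arose independently is not stated, so p-values measure the spread between these samples. The gene lists and members were chosen with earlier results of these data known. Beyond the lists, the 15 largest rises and falls were named among called genes whose average log2 CPM was 3 or more, without overlap between the groups and with 1 direction in all 3 pairs.

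Brain and kidney tumors of the same mouse come from 1 animal, which pairs them by design. Correlations of their deviations from the group means were 0.14, -0.16 and -0.08 for mouse 1, mouse 2 and mouse 4. On simulated counts for 22702 genes of this comparison, the test recovered 48% of genes changed 4-fold and 87% of those changed 16-fold, and 2.17% of its calls were false. The simulated samples were independent, without pairs or a library like replicate 7. Only 100 genes were changed at each fold, all with an average log2 CPM of 3 or more. These shares therefore need not hold for the tumors themselves. No kidney tumor library was a copy of another from the same mouse. Fetal kidneys of the Pax8-Cre model were not used here. Results for a few genes of the lists are not reported here, although the list counts and sums include them.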

Additional observations from a re-analysis of the deposited data

Results flagged for a closer look

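Of 101 named genes, 28 had 1 mouse far from the other 5 among the kidney tumors, by Dixon's test at the 95% level, and chance flags about 1 in 20 groups. In 24 of the 28 that mouse was mouse 4, whose kidney tumor replicate 7 held brain genes, though not all 24 were of that kind. Among Zic and regional factors the summed kidney tumors of mouse 4 held 19.6 CPM of Zic1, 5.53 CPM of Zic2, 2.23 CPM of Zic4, 8.12 CPM of Zic5, 4.75 CPM of Otx2, 3.53 CPM of Six3, 32.1 CPM of Sox2 and 9.77 CPM of Lhx1. Among pigment genes the summed kidney tumors of mouse 4 held 206.7 CPM of Dct and 57.9 CPM of Slc24a5. Among glial and barrier genes the summed kidney tumors of mouse 4 held 17 CPM of Gfap, 0.538 CPM of Mog and 4.21 CPM of Spock2. Among neuronal genes the summed kidney tumors of mouse 4 held 2.52 CPM of Bend6, 1.53 CPM of Elavl2, 5.92 CPM of Gad1, 1.54 CPM of Gpr158, 5.74 CPM of Kcna1, 8.66 CPM of Neto1, 9.95 CPM of Rbfox3, 2.77 CPM of Rims1 and 10.2 CPM of Sez6l. Dio2, which activates thyroid hormone, was at 1.87 CPM in the same mouse. The renal lineage factor Lhx1 was at 9.77 CPM and the receptor Ppara at 37.1 CPM there. Both were higher in replicate 7 (13.4 and 48.9 CPM) than in the brain tumor of mouse 4 (0.0188 and 6.29 CPM). Mouse 5 stood above the rest for Aspscr1 (40.6 CPM), Robo4 (19 CPM) and Ugt2b37 (126.3 CPM), and mouse 1 for Egfr (118.8 CPM).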

How the results depend on the processing

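The number of calls depended on the mice used and on the pairing. With mouse as a fixed replicate block over the 3 pairs, which also leaves out the other kidney tumor mice, 0 genes passed (2870 at an unadjusted p under 0.05, smallest adjusted p 0.267). The median log2 fold change of the Hox genes was -6.08 against -6.02 without the block. Again 0 passed when kidney tumor replicate 7 was left out as well (3105 at an unadjusted p under 0.05). With mouse as a random replicate block, limma-voom called 1314 genes on summed samples and 3751 on single libraries. Kidney tumors of only the 3 mice with brain tumors gave 39 calls without pairing, all of them lower. The drop from 2044 to 39 calls thus came with leaving out mice, before the pairing entered. DESeq2 called 5115 genes, the fit over all 5 Sglt2-Cre groups 5933, and the test against a fold change of 1.5 called 789. Leaving out 1 brain tumor, the kidney tumors of 1 mouse or replicate 7 gave 857 to 2729 calls, the fewest without the kidney tumors of mouse 1 and 1012 without the brain tumor of mouse 2. The cause of these shifts was not tested. The analyses without replicate 7 were chosen after seeing the data. Other normalizations, filters and halved counts gave 1619 to 2230 calls, and sex as a covariate gave 1469. By Y-linked RNA mouse 1 was the only male with a brain tumor (334.9 CPM, against 0.883 CPM in mouse 2 and 0.859 CPM in mouse 4). Sex and other traits of the brain tumor of mouse 1 therefore cannot be told apart. Of 72 called genes named here, 23, 40 and 18 lost the call without the brain tumor of mouse 1, mouse 2 and mouse 4, and 1 (Ret) without replicate 7. Without the kidney tumors of mouse 1, 2, 3, 4, 5 and 6 in turn, 36, 28, 35, 7, 24 and 29 lost it. With sex as a covariate 16 did. No called gene named here changed sign in the alternatives that gave it an adjusted p. DESeq2 did so for 64 of the 72 and the filter of at least 1 CPM for 69. In the simulation with 3 brain samples, changes of 4-fold were often missed.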

Other observations

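Retro-orbital tumors of the same model were not part of the comparison. Over their 4 libraries Zic1 ran from 0 to 6.99 CPM with a median of 0.23 CPM, and Dct from 0 to 99.6 CPM with a median of 1.15 CPM. Other list sums overlapped those of brain tumors, without a test. Pigment genes summed to 1958 to 2332 CPM against 1541 to 2034 CPM in brain tumors. Neuronal genes summed to 546.6 to 886.3 against 628.9 to 5901 CPM, and astrocyte genes to 689.4 to 923.5 against 690.8 to 1573 CPM. Hox genes summed to 5.82 to 22.9 CPM and renal lineage factors to 15.8 to 83.8 CPM in the retro-orbital libraries.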
